A study of Homo sapiens with 18 samples.

Results

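BRF2, GTF3C6, SNAPC1, SNAPC5 and POLR1A, 5 genes that encode parts of the RNA polymerase III and I transcription machinery, were followed across 6 treatments of SJSA-1 cells. They were chosen by name, because the study's title concerns RNA polymerase III, and they are 5 of the 3074 genes in the authors' table of normalized counts. SJSA-1 is an established human osteosarcoma line that carries extra copies of MDM2, the gene of the ubiquitin ligase that restrains p53. Poly(A) RNA was sequenced from 18 libraries, 3 for each treatment, and the labels do not say whether the 3 were separate cultures, so p-values measure only the spread between these libraries, which may be technical.

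Every library came from cells kept for 72 h in a pretreatment, either neocarzinostatin (NCS, 1 µg/mL), a radiomimetic that breaks DNA, or DMSO. After 48 h the pretreatment was renewed and a further agent was added for the last 24 h. The NCS+MI-1061 group received NCS and then 1 µM MI-1061, an MDM2 inhibitor. The NCS+MD-224 group received NCS and then 1 µM MD-224, an MDM2 degrader. The NCS group received NCS and then DMSO. The MI-1061 and MD-224 groups received DMSO and then 1 µM of the compound, and the DMSO group received DMSO throughout. All groups share the line, the vehicle and the duration, and each result is from 1 cell line. In bulk RNA a change in every cell and a change in some of the cells cannot be told apart.

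RNA polymerase III makes short noncoding RNAs such as tRNAs, 5S rRNA and U6 snRNA, and RNA polymerase I makes the precursor of the large ribosomal RNAs. At tRNA genes TFIIIC binds promoter elements inside the gene and recruits TFIIIB, which positions the polymerase. At U6-type genes the complex SNAPc binds upstream of the start and a TFIIIB that contains BRF2 is used, and SNAPc also serves the snRNA genes read by RNA polymerase II. The 5 transcripts measured here are mRNAs of the machinery, made by RNA polymerase II, and poly(A) selection does not measure the output of polymerase III or I.

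The stretches upstream of SNAPC1 and SNAPC5, the 2 genes called higher with MI-1061 over DMSO on the deposited scaling (with TMM scaling only SNAPC1 was), are given because they lie next to the starts of these transcripts. They come from RefSeq (GRCh38.p14), run 5′ to 3′ on the strand of the gene, and stop before any annotated exon. SNAPC1 is at chr14:61762420-61796428 on the plus strand, and the stretch is chr14:61762170-61762356. SNAPC5 is at chr15:66489748-66497762 on the minus strand, and the stretch is chr15:66497814-66498012. Capitals mark a match to CCGGAA, the core recognised by ETS factors.
SNAPC1: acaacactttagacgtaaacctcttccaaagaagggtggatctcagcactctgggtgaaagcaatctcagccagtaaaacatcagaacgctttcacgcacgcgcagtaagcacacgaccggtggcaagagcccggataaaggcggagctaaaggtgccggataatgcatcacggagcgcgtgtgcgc
SNAPC5: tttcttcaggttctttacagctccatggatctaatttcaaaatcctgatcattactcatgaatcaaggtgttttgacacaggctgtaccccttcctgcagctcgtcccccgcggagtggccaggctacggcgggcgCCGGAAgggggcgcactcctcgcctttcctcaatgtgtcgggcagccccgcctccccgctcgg

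Promoter entries were present for 4 of the 5 genes. The 250 bases before each start were searched on both strands for the TATA box with letters TATAAA, the CCAAT box, the GC box with letters GGGCGG, the E-box with letters CACGTG, the ETS core, the NRF1 core with letters TGCGCA and the p53 half-site. SNAPC5 held the ETS core at 2 places, 114 (in the stretch above) and 50 bases before its start, and 14.5% of 35116 such windows hold it. SNAPC1 held a GC box (42.6% of windows) and the NRF1 core (6.89%). GTF3C6, at chr6:110958706-110967872 on the plus strand, held CCAAT (32% of windows), the GC box, the E-box (6.34%) and the ETS core, and the window of POLR1A, at chr2:86020216-86105886 on the minus strand, matched none of the 7. The p53 half-site was found in 5.57% of all windows and in none of these 4. A match is a description of the letters and not of binding.

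The table is a selection. Each of its 3074 genes has a mean in NCS+MI-1061 libraries at least 1.751 times that in DMSO libraries, with a median ratio of 2.997. Every contrast that contains NCS+MI-1061 or DMSO is therefore tilted by the listing. For these genes the ratios were 2.294 for BRF2, 2.117 for SNAPC1, 2 for SNAPC5, 1.974 for GTF3C6 and 1.933 for POLR1A, and between 12.04% and 29.25% of listed genes had a smaller one. In 5 of 5 the NCS+MI-1061 and DMSO libraries did not overlap, which 98.5% of listed genes share, and no test was made. Other separations of libraries given below were not counted over all listed genes. Of 93 genes in 10 lists of transcription and small RNA machinery, 6 were in the table. These were 2 of 11 TFIIIA, TFIIIB and TFIIIC genes (BRF2, GTF3C6), 2 of 7 SNAPc genes and activators (SNAPC1, SNAPC5), 1 of 13 polymerase I genes (POLR1A) and 1 of 6 tRNA splicing genes, CLP1. None of the 11 polymerase III subunit genes was listed, nor any of 7 shared subunits, 5 polymerase III regulators, 8 polymerase II subunits, 15 Integrator or 10 RNase P and MRP genes, and they are not analysed here.

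The listed genes held between 4490870 and 21816350 reads a library, recovered from the deposited values, and the 5 genes between 176 reads (SNAPC5) and 13804 reads (POLR1A). MDM2 mRNA averaged 2459876 normalized counts in NCS+MI-1061 cells, 832815 in NCS+MD-224, 182308 in NCS, 1572225 in MI-1061, 407832 in MD-224 and 135076 in DMSO cells. Of 9 osteoblast lineage markers COL1A2, SPARC and SPP1 were listed, with sums of 165704 to 190865 in NCS+MI-1061 libraries and 70302 to 87985 in DMSO libraries. The haematopoietic markers CD68, ITGAM and LAPTM5 (3 of 4) summed to 4852 to 4962 in NCS+MI-1061 and 440 to 1111 in DMSO libraries, and none of 4 epithelial markers was listed. Of 3 endothelial markers VWF was listed, at 147 to 270.2 in NCS+MI-1061 libraries, 1513 to 2534 in MI-1061 libraries and 46.0 to 89.7 in DMSO libraries. In MI-1061 libraries LAPTM5 had 1449.6 to 1964 and ITGAM 218.7 to 369.4, against 57.3 to 149 and 6.1 to 35.6 in DMSO libraries. The CD68 ranges overlapped, at 430.4 to 810.7 with MI-1061 and 376.5 to 1023.2 with DMSO. COL1A2 had 5370.1 to 13462 in MI-1061 and 9754 to 19989 in DMSO libraries, which also overlapped. The other osteoblast markers leaned the opposite way. SPARC had 73850.8 to 121970.2 with MI-1061 and 56284.2 to 67723.4 with DMSO, and SPP1 1162.7 to 2773.8 and 343.8 to 1362.4, with overlap. The part of these levels in the results, the SNAPC1 difference with MI-1061 among them, was not tested.

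Per kilobase of annotated exon, GTF3C6 had the highest level of the 5 genes, at 4007 normalized counts per kb in NCS+MI-1061 cells and 2030.1 in DMSO cells. BRF2 followed with 1450 and 632, SNAPC1 with 1128 and 533, POLR1A with 761 and 393, and SNAPC5 was lowest with 168 and 83.8. Strand use in counting is not given in the sources used here, and it bears on some of these genes. BRF2 (chr8:37843268-37849861, minus strand) shares 1629 of its 2760 exonic bases (59%) with ADGRA2 on the opposite strand. Without strand, reads within the shared bases cannot be told apart. SNAPC5 shares 216 of 2509 bases (8.61%) with MAP2K1 on the opposite strand and 583 (23.2%) with AC116913.1 on its own, and SNAPC1 shares 565 of 2656 (21.3%) with AL137129.1 on its own, so part of their counts is uncertain. GTF3C6 (1067 bases) and POLR1A (13519 bases) share none.

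**Figure D1:**
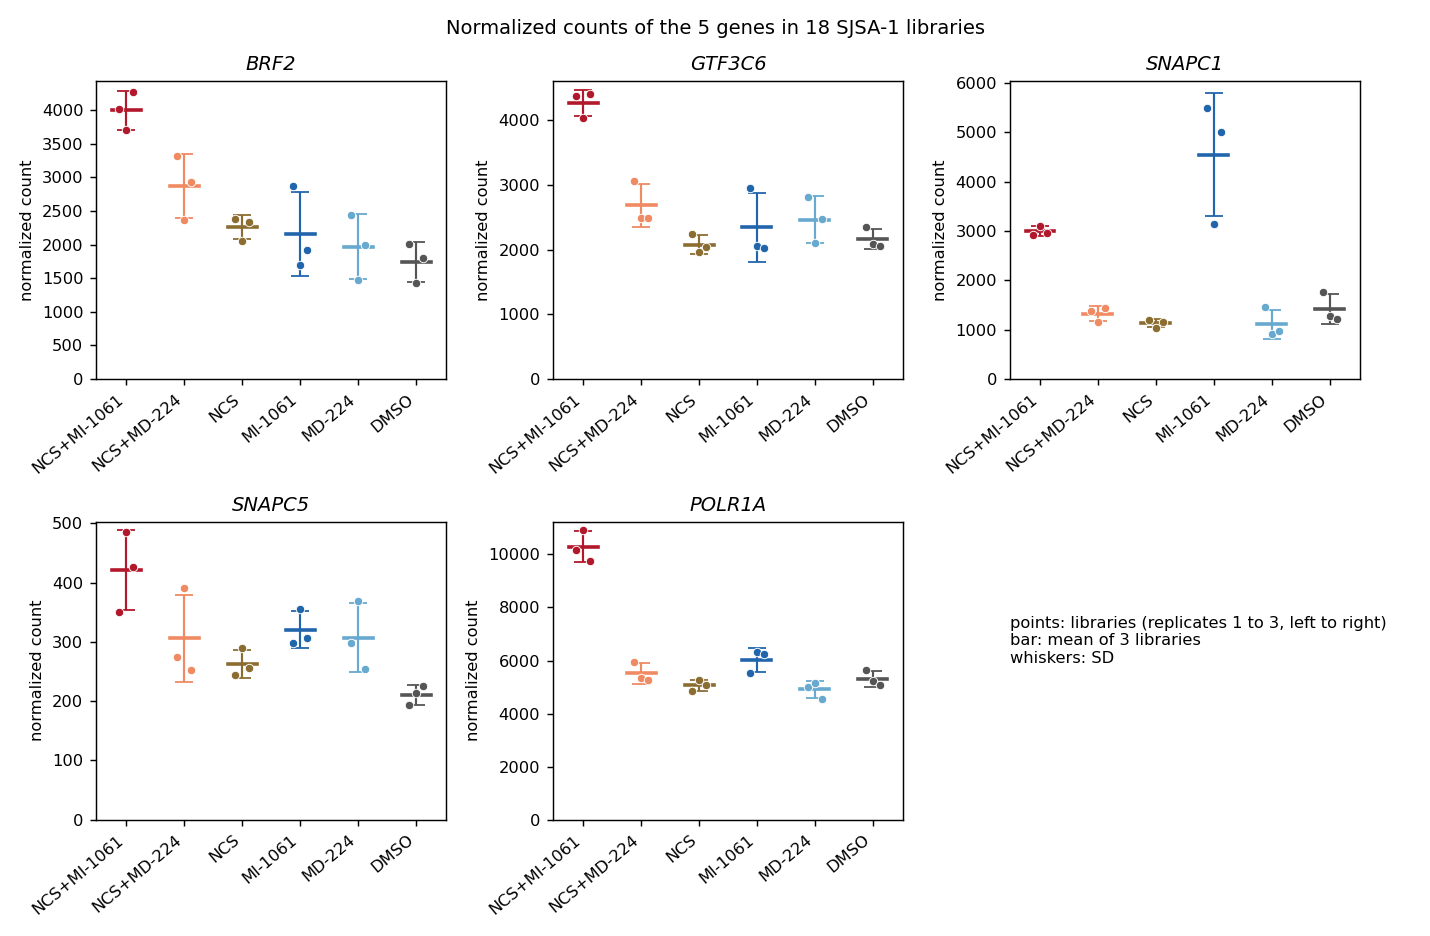
Normalized counts (vertical axis, linear from 0) of the 5 genes in each library, grouped by treatment; points are libraries, bars the mean of 3 and whiskers the SD. NCS+MI-1061 has the highest mean for BRF2, GTF3C6, SNAPC5 and POLR1A, and MI-1061 alone for SNAPC1, at 4543.

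BRF2, the TFIIIB subunit used at U6-type promoters, was highest with NCS followed by MI-1061. Its normalized counts were 4024, 3699 and 4278 in NCS+MI-1061 libraries (replicates 1, 2 and 3), against 2378, 2054 and 2343 in NCS libraries. In NCS+MD-224 libraries they were 3318, 2361 and 2932. All 3 NCS+MI-1061 libraries stood above every other library, while NCS+MD-224 overlapped NCS. Genes were listed through the NCS+MI-1061 group, which had the highest mean for 68.2% of tested genes. Without NCS, BRF2 had 2864, 1698 and 1912 in MI-1061 libraries, 2439, 1477 and 1990.3 in MD-224 libraries and 2007, 1422 and 1802 in DMSO libraries. These 3 groups overlapped, and replicate 2 was the lowest of its group in 6 of 6 groups while replicate 1 was the highest in 5.

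BRF2 rose 1.77-fold in NCS+MI-1061 over NCS cells (log2 0.83 ± 0.20 SE, limma adjusted p = 0.00164) and 1.9-fold over MI-1061 cells (log2 0.92, adjusted p = 0.000711). It rose 1.65-fold in NCS+MD-224 over DMSO cells (adjusted p = 0.00445) and 1.47-fold over MD-224 cells (adjusted p = 0.0366). In NCS+MD-224 cells it was 0.712 times the level of NCS+MI-1061 cells (log2 −0.49, adjusted p = 0.0494), close to the threshold. NCS alone against DMSO gave log2 0.38 (adjusted p = 0.116, and 0.0129 with a replicate block). The libraries of these groups did not overlap, and 54% of tested genes were called higher there. MI-1061 against DMSO gave 0.28 (adjusted p = 0.215, and 0.0444 with a replicate block), and MD-224 against DMSO 0.16 (adjusted p = 0.553).

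For BRF2 the call in NCS+MD-224 over MD-224 was lost without NCS+MD-224 replicate 1 (adjusted p = 0.153) or 3 (0.0833), MD-224 replicate 2 (0.174) or 3 (0.0716), and replicate 2 (0.0538) or 3 (0.238) of every group. The call between NCS+MD-224 and NCS+MI-1061 was lost without NCS+MI-1061 replicate 1 (0.0988), 2 (0.0631) or 3 (0.129), NCS+MD-224 replicate 2 (0.2) or 3 (0.081), or replicate 2 (0.0902) or 3 (0.275) of every group, and with edgeR (0.0533) or DESeq2 (0.0516) on recovered reads. Without replicate 3 of every group the calls in NCS+MI-1061 over MI-1061 (0.054) and in NCS+MD-224 over DMSO (0.0657) were lost too. With a replicate block the limma adjusted p for BRF2 was 0.00143 in NCS+MD-224 over MD-224 and 0.0024 between NCS+MD-224 and NCS+MI-1061.

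GTF3C6, the smallest of the subunits of TFIIIC in human cells, had its highest level where NCS was followed by MI-1061. Its normalized counts were 4379.7, 4043 and 4404 in NCS+MI-1061 libraries, against 2238, 1965 and 2037 in NCS libraries. With NCS+MD-224 they were 3069.9, 2494 and 2492. The NCS+MI-1061 libraries were apart from all others, and the NCS+MD-224 libraries also lay above the NCS ones. For 68.2% of tested genes NCS+MI-1061, the group of the listing, had the highest mean. Without NCS, GTF3C6 had 2962, 2057 and 2021 in MI-1061 libraries, 2819, 2102 and 2479 in MD-224 libraries and 2351, 2087 and 2060.5 in DMSO libraries. These overlapped, with replicate 1 highest in each.

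GTF3C6 rose 2.06-fold in NCS+MI-1061 over NCS cells (log2 1.04 ± 0.15 SE, limma adjusted p = 8.65e-06) and 1.85-fold over MI-1061 cells (adjusted p = 5.92e-05), and was 0.626 times as high in NCS+MD-224 as in NCS+MI-1061 cells (adjusted p = 0.00103; 0.057 without replicate 3 of every group). No single agent gave a call against DMSO. The log2 differences were −0.06 with NCS (95% interval −0.37 to 0.26, adjusted p = 0.751), 0.09 with MI-1061 (−0.22 to 0.41, adjusted p = 0.582) and 0.18 with MD-224 (−0.14 to 0.49, adjusted p = 0.348). In NCS+MD-224 over NCS cells log2 was 0.36 (adjusted p = 0.113, and 0.0183 with a replicate block).

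SNAPC1, a core subunit of SNAPc, had another order of levels from the other genes, with its highest values in MI-1061 cells without NCS. Its normalized counts were 5489.6, 3131 and 5008 in MI-1061 libraries, 1449, 915 and 964 in MD-224 libraries and 1756, 1276 and 1212 in DMSO libraries. Every MI-1061 library was above every other library of the study, and MD-224 overlapped DMSO. With NCS it had 2921, 3107 and 2959 in NCS+MI-1061 libraries, 1386, 1149 and 1431 in NCS+MD-224 libraries and 1190.2, 1034 and 1151 in NCS libraries. The NCS+MI-1061 libraries lay close together, below those of MI-1061 and above all the rest.

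SNAPC1 rose 3.16-fold in MI-1061 over DMSO cells (log2 1.66 ± 0.21 SE, limma adjusted p = 1.68e-06). SNAPC1 was also called without each library or replicate number in turn (log2 1.47 to 1.91) and with TMM scaling (log2 0.67, adjusted p = 0.0143). With MD-224 it did not pass (log2 −0.36, 95% interval −0.80 to 0.07, adjusted p = 0.165). Without MD-224 replicate 1 the MD-224 estimate was −0.57 (adjusted p = 0.0379). Directly compared, SNAPC1 in MD-224 cells was 0.246 times its level in MI-1061 cells (log2 −2.02, interval −2.46 to −1.59, adjusted p = 4.19e-07). Like SNAPC1, 315 tested genes (10.3%) were called higher with MI-1061 and had an estimate below 0 with MD-224, 2 contrasts that share the DMSO libraries.

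With NCS the inhibitor raised SNAPC1 2.66-fold (NCS+MI-1061 over NCS, log2 1.41, limma adjusted p = 1.04e-05). NCS+MD-224 cells had 0.44 times the level of NCS+MI-1061 cells (log2 −1.19, adjusted p = 0.000126). With TMM scaling neither call held (log2 0.42, adjusted p = 0.134, and log2 −0.52, adjusted p = 0.0842). The level in NCS+MI-1061 cells was 0.678 times that in MI-1061 cells (log2 −0.56, adjusted p = 0.0244), while 10.1% of tested genes were called lower there. This call was lost without NCS+MI-1061 replicate 1 (adjusted p = 0.0593) or 3 (0.0559), MI-1061 replicate 1 (0.124) or 3 (0.0941), and replicate 1 (0.127) or 3 (0.224) of every group, and with TMM scaling it was larger (log2 −1.18, adjusted p = 0.00026). NCS against DMSO gave log2 −0.31 (adjusted p = 0.204) with libraries that did not overlap, where 54% of tested genes were called higher and 1.3% lower. The listed neighbour on the chromosome, SYT16, begins 15734 bases beyond SNAPC1 and had log2 1.17 with MI-1061 over DMSO (adjusted p = 0.0593, and 0.0172 with a replicate block) and 1.73 in NCS+MI-1061 over MI-1061 (adjusted p = 0.00933), where SNAPC1 was lower.

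SNAPC5, the smallest subunit of SNAPc, had the lowest counts of the 5 genes and modest differences. Its normalized counts were 351, 485 and 426 in NCS+MI-1061 libraries, 274, 390.1 and 253 in NCS+MD-224 libraries and 243, 289 and 256 in NCS libraries. Without NCS they were 298, 356 and 306 in MI-1061 libraries, 298, 369 and 254 in MD-224 libraries and 193, 213 and 225 in DMSO libraries. The DMSO libraries lay below all 15 others, in a table listed for levels above DMSO in NCS+MI-1061 cells. How many listed genes share this was not counted. The 5 treated groups overlapped their neighbours in the order of means.

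SNAPC5 rose 1.52-fold in MI-1061 over DMSO cells (log2 0.60 ± 0.20 SE, limma adjusted p = 0.013), 1.44-fold in MD-224 over DMSO cells (adjusted p = 0.0431), 1.59-fold in NCS+MI-1061 over NCS cells (adjusted p = 0.0072) and 1.43-fold in NCS+MD-224 over DMSO cells (adjusted p = 0.0287). MD-224 and MI-1061 did not differ by the test (log2 −0.07, interval −0.50 to 0.35, adjusted p = 0.769), an interval that allows differences in either direction. With TMM scaling none of these 4 calls held, with log2 −0.39 (MI-1061 over DMSO), 0.04 (MD-224 over DMSO), −0.32 (NCS+MI-1061 over NCS) and −0.42 (NCS+MD-224 over DMSO). NCS against DMSO gave log2 0.32 (adjusted p = 0.185) with libraries that did not overlap, where 54% of tested genes were called higher. NCS+MD-224 against NCS+MI-1061 gave −0.47 (adjusted p = 0.0559). It passed with a replicate block (0.0179), DESeq2 (0.0381), a constant prior variance (0.041), a mean of at least 50 (0.049), and without NCS+MI-1061 replicate 1 (0.0362) or NCS+MD-224 replicate 2 (0.0157).

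The SNAPC5 call with MD-224 was lost without MD-224 replicate 1 (adjusted p = 0.0723) or 2 (0.17), DMSO replicate 1 (0.111), 2 (0.0699) or 3 (0.0581), or any replicate number of every group (0.105 to 0.18). The call in NCS+MD-224 over DMSO was lost without NCS+MD-224 replicate 2 (0.166), DMSO replicate 1 (0.0798) or replicate 1 (0.103), 2 (0.17) or 3 (0.0587) of every group. The call with MI-1061 was lost without replicate 1 (0.0682) or 3 (0.0618) of every group, and that in NCS+MI-1061 over NCS without replicate 3 of every group (0.0794). With a replicate block the limma adjusted p was 0.0121 with MD-224, 0.00286 with MI-1061 and 0.00134 in NCS+MI-1061 over NCS. SNAPC5 begins 252 bases from the end of RPL4.

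POLR1A, the largest subunit of RNA polymerase I and part of its catalytic centre, was highest in NCS+MI-1061 cells. Its normalized counts were 10165, 10916 and 9764 in NCS+MI-1061 libraries, 5954, 5335 and 5255 in NCS+MD-224 libraries and 4858, 5258 and 5092 in NCS libraries. Without NCS they were 5511, 6308 and 6237 in MI-1061 libraries, 5000.2, 5167 and 4567 in MD-224 libraries and 5659.8, 5216 and 5078 in DMSO libraries. Only the NCS+MI-1061 libraries were apart from all others, in the group through which genes were listed. By mean, 68.2% of tested genes were highest in this group. The other 5 groups overlapped their neighbours in the order of means.

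POLR1A rose 2.03-fold in NCS+MI-1061 over NCS cells (log2 1.02 ± 0.10 SE, limma adjusted p = 6.75e-08) and 1.71-fold over MI-1061 cells (adjusted p = 2.37e-06), and in NCS+MD-224 cells it was 0.536 times the level in NCS+MI-1061 cells (adjusted p = 1.15e-06). Against DMSO, log2 was −0.07 with NCS (interval −0.27 to 0.14, adjusted p = 0.557), 0.18 with MI-1061 (−0.03 to 0.38, adjusted p = 0.108) and −0.12 with MD-224 (−0.32 to 0.09, adjusted p = 0.354). The MI-1061 estimate passed without MI-1061 replicate 1 (log2 0.24, adjusted p = 0.0443) or replicate 1 of every group (0.0378). MD-224 cells had 0.816 times the level of MI-1061 cells (log2 −0.29, adjusted p = 0.0146, and 0.00774 with a replicate block). That call was lost without MI-1061 replicate 2 (0.0504) or 3 (0.0502), MD-224 replicate 3 (0.0713) or replicate 2 (0.0631) or 3 (0.266) of every group, and with TMM scaling POLR1A was higher in MD-224 cells (log2 0.21, adjusted p = 0.0397).

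**Figure D2:**
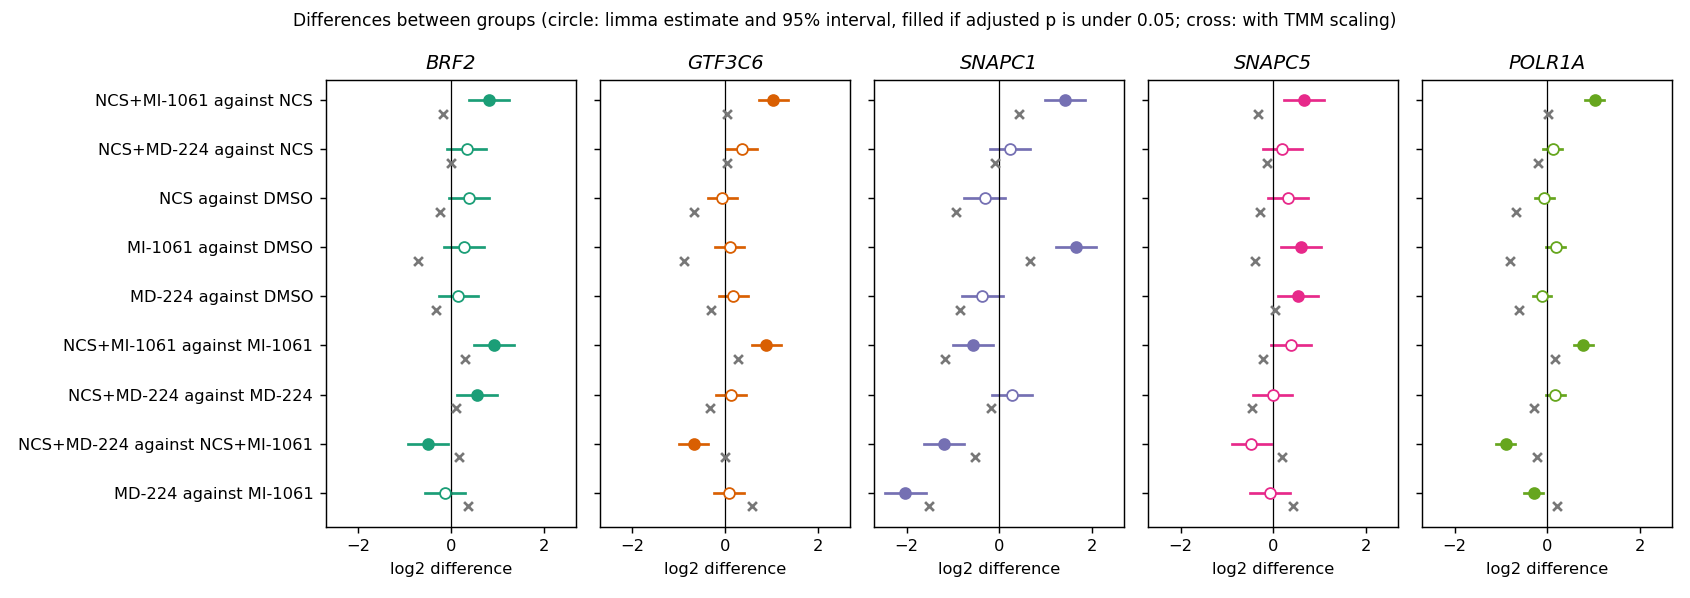
Log2 differences (horizontal axis) of the 5 genes in 9 comparisons, with the limma estimate as a circle, its 95% interval as a line, filled where the adjusted p is under 0.05, and the TMM-scaled estimate as a cross. SNAPC1 in MI-1061 against DMSO stays above 0 under both scalings, at 1.66 and 0.67.

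The comparison of NCS+MI-1061 with NCS asks what the inhibitor adds in NCS-treated cells. All 5 genes rose, with a median of 2.03-fold, where 70.5% of the 3073 tested genes were called higher, 0.748% lower, and the median was 1.96-fold. The count is near that background. TMM scaling, which assumes that most listed genes do not differ, shifted all listed genes down, their median log2 by −0.99, and then 733 genes were called higher and 593 lower, and 0 of the 5 were called (0 also at an unadjusted p under 0.05, while edgeR and DESeq2 on recovered reads called 5). The TMM estimates were −0.17 for BRF2, 0.05 for GTF3C6, 0.42 for SNAPC1, −0.32 for SNAPC5 and 0.02 for POLR1A, so none of the 5 passed relative to the listed genes as a whole. In NCS+MD-224 over NCS cells limma called 0 of the 5, 1 (GTF3C6) at an unadjusted p under 0.05 and 0 with edgeR or DESeq2, where 15.1% of tested genes were called higher, or 116 genes higher and 6 lower with TMM scaling. The median of the 5 was 1.17-fold there, against 1.23-fold over all tested genes.

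Without NCS, 2 of the 5 rose with MI-1061 over DMSO (SNAPC1, SNAPC5), where 67.6% of tested genes were called higher and 4.46% lower. With MD-224 over DMSO 1 rose (SNAPC5), where 39.9% were called higher and 2.8% lower. The median of the 5 was 1.22-fold with MI-1061, against 1.99-fold over all tested genes, and 1.12-fold with MD-224, against 1.4-fold. TMM scaling shifted the 2 medians of all genes by −0.98 and −0.49 (log2). It gave 942 genes higher and 925 lower for MI-1061, and 327 higher and 357 lower for MD-224. On that scale SNAPC1 was the only one of the 5 called higher with MI-1061. BRF2 (log2 −0.71), GTF3C6 (−0.90) and POLR1A (−0.82) were called lower, and SNAPC5 lost its call and turned (−0.39, adjusted p = 0.104). For these 4 the sign differed between the 2 scalings. The TMM scale is set by genes listed for higher levels in NCS+MI-1061 than in DMSO cells. Lower on it, here and below, means lower relative to those genes and not by itself a fall in level. With MD-224 SNAPC1 (−0.86) and POLR1A (−0.61) were called lower on the TMM scale, and SNAPC5 lost its call (0.04, adjusted p = 0.907).

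NCS alone called 0 of the 5 by limma (0 at an unadjusted p under 0.05, 0 by edgeR and DESeq2), where 54% of tested genes were called higher and 1.3% lower. The median of the 5 was 0.961-fold, against 1.58-fold over all tested genes. With TMM scaling, a shift of −0.60 in the median, 456 genes were called higher and 467 lower, among the lower GTF3C6 (−0.67), SNAPC1 (−0.93) and POLR1A (−0.68). In NCS+MD-224 over DMSO cells 2 rose (BRF2, SNAPC5), where 76.1% of tested genes were called higher and 0.423% lower. With TMM scaling, 572 genes were higher and 505 lower, 0 of the 5 were higher, and GTF3C6 (−0.64), SNAPC1 (−1.03) and POLR1A (−0.89) were lower.

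In the comparisons that ask what NCS adds to a compound, 3 of the 5 rose and 1 fell in NCS+MI-1061 over MI-1061 cells, where 55.9% of tested genes were called higher and 10.1% lower. The 3 were BRF2, GTF3C6 and POLR1A and the 1 was SNAPC1, and the median of the 5 was 1.71-fold, against 1.63-fold over all tested genes. With TMM scaling (930 genes higher, 729 lower) only the SNAPC1 call was left. In NCS+MD-224 over MD-224 cells 1 rose (BRF2), where 39% of tested genes were called higher and 0.586% lower, and with TMM scaling (428 higher, 223 lower) BRF2 had log2 0.11 (adjusted p = 0.756) and POLR1A was called lower (−0.28).

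The 2 compounds, both given at 1 µM for 24 h, differed by limma in 2 of the 5 genes without NCS and 4 of the 5 with NCS. In MD-224 against MI-1061 cells SNAPC1 and POLR1A were lower, where 49.8% of tested genes were called lower and 12.4% higher. BRF2 (log2 −0.12, interval −0.55 to 0.30, adjusted p = 0.605) and GTF3C6 (0.09, −0.23 to 0.40, adjusted p = 0.633) did not pass, and with TMM scaling (847 genes higher, 941 lower) GTF3C6 was called higher in MD-224 cells (log2 0.58). In NCS+MD-224 against NCS+MI-1061 cells BRF2, GTF3C6, SNAPC1 and POLR1A were lower, where 54.7% of tested genes were called lower and 0.748% higher. EdgeR called 3 of these (BRF2 at 0.0533), and DESeq2 4, with SNAPC5 (0.0381) in place of BRF2 (0.0516), as did a constant prior variance (SNAPC5 0.041, BRF2 0.0713). With TMM scaling (357 genes higher, 550 lower) only POLR1A was called (log2 −0.23, adjusted p = 0.0418), and BRF2 had 0.18. In all, 10 such pairs were compared, with p-values adjusted over all tested genes of each comparison.

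**Figure D3:**
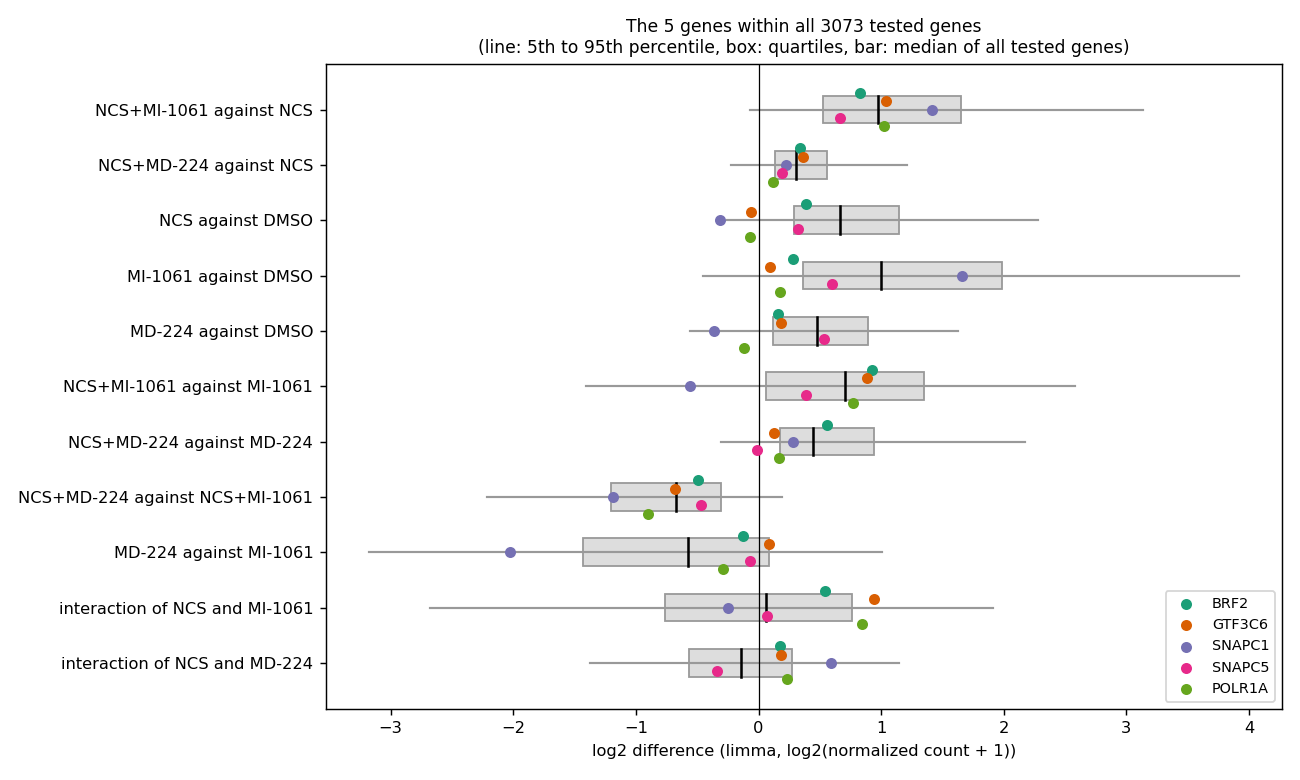
Log2 differences (horizontal axis) of the 5 genes, as coloured points, against all 3073 tested genes in 11 comparisons; boxes are quartiles, bars medians and lines the 5th to 95th percentiles. In NCS+MI-1061 against NCS the 5 lie around the median of 0.97, and in MI-1061 against DMSO only SNAPC1 lies above the median of 1.00.

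Whether the response to MI-1061 differed between cells with and without NCS was tested as an interaction, which the common scaling barely moves (a shift of −0.01 in the median). GTF3C6 had log2 1.04 with NCS and 0.09 without, a difference of 0.945 ± 0.21 SE (limma adjusted p = 0.00178, and 0.00249 with TMM scaling). POLR1A had 1.02 with NCS and 0.18 without, a difference of 0.84 ± 0.14 SE (adjusted p = 0.00013, and 3.25e-05 with TMM scaling). The listing bears on both, because a gene that neither agent alone moves can only be in the table if the combination moves it. Of 463 tested genes called neither with NCS nor with MI-1061, which include GTF3C6, POLR1A and BRF2, 439 (94.8%) had a positive estimate and 240 (51.8%) were called higher. Their median was 0.986, above the values of GTF3C6 and POLR1A, so nothing particular to these 2 genes is read from the test. Over all tested genes 23.5% were called higher and 20.8% lower. The GTF3C6 call was lost without replicate 3 of every group (adjusted p = 0.0794).

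The other differences were 0.54 for BRF2 (adjusted p = 0.136, and 0.0275 without MI-1061 replicate 1), −0.25 for SNAPC1 (interval −0.86 to 0.37, adjusted p = 0.522) and 0.07 for SNAPC5 (interval −0.54 to 0.67, adjusted p = 0.872). For MD-224 the interaction called 0 of the 5 by limma, 0 at an unadjusted p under 0.05 and 0 by edgeR or DESeq2, where 4.07% of tested genes were called higher and 7.19% lower. With TMM scaling, which called 201 genes higher and 127 lower, POLR1A was called higher (log2 0.40, adjusted p = 0.0363).

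**Figure D4:**
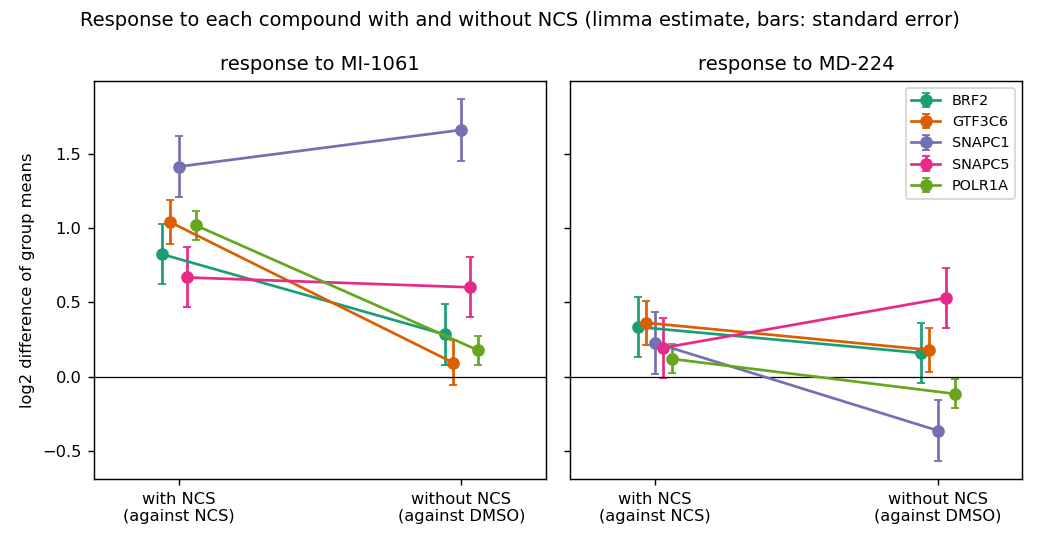
Log2 response (vertical axis, limma estimate with SE bars) of the 5 genes to MI-1061 and to MD-224, each with NCS (against NCS) and without it (against DMSO). The MI-1061 response of GTF3C6 is 1.04 with NCS and 0.09 without, that of POLR1A 1.02 and 0.18, and that of SNAPC1 1.41 and 1.66.

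Across treatments 4 of the 5 genes had their highest mean in NCS+MI-1061 cells, as did 68.2% of tested genes, and SNAPC1 had its highest in MI-1061 cells, as did 22.8%. Over the 18 libraries the log2 values of BRF2 and GTF3C6 were the most alike pair (Pearson r = 0.890, Spearman rho = 0.804). GTF3C6 and POLR1A came next by r (0.814, with rho = 0.385), and SNAPC1 and POLR1A by rho (0.695, with r = 0.601). SNAPC1 and SNAPC5, subunits of 1 complex, had r = 0.392 and rho = 0.282. The points share treatments and replicate numbers, so these are descriptions only.

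Among 2605 genes with a mean of at least 50, those most like BRF2 over the 18 libraries were SERP1 (r = 0.980), TBC1D23 (0.963) and UFM1 (0.961), and among those most like GTF3C6 were MON2 (0.963) and S100A10 (0.955). Among those most like SNAPC1 were LINC00152 (0.954) and EXOC8 (0.949). EXOC8, which encodes a subunit of the exocyst, averaged 2965 normalized counts in NCS+MI-1061 cells, 2009 in NCS+MD-224, 1636 in NCS, 4466 in MI-1061, 1544 in MD-224 and 1607 in DMSO cells, with MI-1061 above NCS+MI-1061 as for SNAPC1. SNAPC5 was most like TLR3 (0.945), OST4 (0.920) and VAMP8 (0.917), with 6 genes at r of at least 0.9. For POLR1A 127 genes reached that r. Its nearest were NME1 (r = 0.971, rho = 0.835), WNT4 (0.971, 0.856) and HES6 (0.968, 0.872), and none of them was among the 3 nearest by rho. Like POLR1A, they had their highest mean in NCS+MI-1061 cells, the group through which genes were listed. How far r rests on that shared group was not tested.

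CLP1, an RNA kinase bound to the tRNA splicing endonuclease and also part of mRNA 3′ end cleavage, was the other listed gene of the machinery lists. It rose with MI-1061 over DMSO (log2 1.64, limma adjusted p = 5.82e-07) and in NCS+MI-1061 over NCS cells (1.96, adjusted p = 6.5e-08), and held both calls with TMM scaling (0.65 and 0.97). With MD-224 over DMSO it did not pass (0.31, adjusted p = 0.186). In NCS+MI-1061 over MI-1061 cells CLP1 had log2 0.56 (adjusted p = 0.0135), a call that TMM scaling ended (−0.06, adjusted p = 0.793).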

How the data were processed

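Poly(A) RNA-seq of SJSA-1 cells gave 18 libraries in 6 groups of 3, grouped by the titles. Per the submitters' processing notes, the build was GRCh38, with DESeq2 2.11.40.6, the counter featureCounts 1.6.3 and the aligner HISAT2 2.0.5.2 named beside it. The annotation and strandedness are not given in the sources used here. The authors deposited a signal, read counts divided by 1 size factor per library (0.6506 to 1.65), for 3074 selected genes. Dividing by each library's step gave whole reads (tolerance 0.01) for 100% of values in 18 libraries. In 13 the lowest value was 1 read, and in 5 it was more.

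The members and lists were chosen with earlier results of these data known. Limma 3.58.1 (R 4.3.3) was run on log2(value + 1), with a trended prior, all 6 groups in 1 fit, a minimum value of 10 in 3 or more libraries (3073 genes passed), two-sided, Benjamini-Hochberg over all tested genes, at 0.05. Fold changes are on that scale. "Called", "rose", "fell" and "lower" refer to this threshold. Intervals are 95%. Named are the 5 genes, the listed genes of each list, and the 3 most correlated genes of each member, some of which are not reported here.

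Alternatives were pseudocounts of 5 and 0.5, no filter, a mean of at least 50, TMM scaling, a replicate block, a constant prior variance, only the compared groups, edgeR 4.0.16 (quasi-likelihood) and DESeq2 1.42.0 on recovered reads, and leaving out libraries. Same-numbered libraries deviated together in 7 of 10 pairwise comparisons (every correlation of deviations over 0.1, from 0.102 to 0.472). The block is therefore given beside some of the results there, and beside the BRF2 result for NCS over DMSO. The pairing comes from the data, as the labels give only the numbers. The mean chi-square per gene between replicates was 20.92 to 133.5, so none was counted as a duplicate. In simulated data with 200 changed genes, limma in NCS+MI-1061 against NCS (3071 genes) found 92.5% of the 4-fold, 63% of the 2-fold and 20% of the 1.5-fold changes, and called 5 unchanged genes. Motif searches and sequences used RefSeq GRCh38.p14. Exon lengths and overlaps came from GENCODE. Python 3.11.15 with pandas 2.3.3 and matplotlib 3.10.9 was used.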

Additional observations from a re-analysis of the deposited data

Results flagged for a closer look

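For GTF3C6 and POLR1A the interaction test called the log2 response to MI-1061 higher with NCS than without. The difference was 0.945 for GTF3C6 (limma adjusted p = 0.00178) and 0.842 for POLR1A (adjusted p = 0.00013), and the GTF3C6 call was lost without replicate 3 of every group (adjusted p = 0.0794). Both values lie below the median of 0.986 among the 463 tested genes that neither agent alone moved past the threshold, which are listed through their NCS+MI-1061 level, so the test shows nothing particular to these 2 genes.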

How the results depend on the processing

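TMM scaling changed most. The number of the 5 genes called became 3 in NCS over DMSO (0 before), 4 in MI-1061 over DMSO (2), 2 in MD-224 over DMSO (1), 0 in NCS+MI-1061 over NCS (5), 1 in NCS+MI-1061 over MI-1061 (4), 1 in NCS+MD-224 over NCS+MI-1061 (4) and 1 in the MD-224 interaction (0). It turned the sign of 13 estimates that passed the threshold under 1 of the scalings or both. In MI-1061 over DMSO these were BRF2 (log2 −0.71), GTF3C6 (−0.90), SNAPC5 (−0.39) and POLR1A (−0.82). In NCS+MI-1061 over NCS they were BRF2 (−0.17) and SNAPC5 (−0.32), in NCS+MD-224 over MD-224 POLR1A (−0.28), in MD-224 over MI-1061 POLR1A (0.21) and in NCS+MD-224 over NCS+MI-1061 BRF2 (0.18). In NCS+MD-224 over DMSO they were BRF2 (−0.22), GTF3C6 (−0.64), SNAPC5 (−0.42) and POLR1A (−0.89). TMM is computed from genes listed because they differ, and it moves every gene of a contrast by a common amount.

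With the replicate block 1 gene was called in NCS+MD-224 over NCS (GTF3C6, adjusted p = 0.0183). The pairing rule (every correlation over 0.1) was not met in NCS over DMSO, where the correlations were 0.286, 0.297 and 0.0627. There the block gave 1 call (BRF2, 0.0129). In other comparisons that missed the rule, the block gave calls for SNAPC5 in NCS+MI-1061 over MI-1061 (0.0424), GTF3C6 in NCS+MD-224 over DMSO (0.0136) and BRF2 in the MI-1061 interaction (0.0156). Over all genes it gave 755 calls in NCS+MD-224 over NCS (465 without) and 612 in the MD-224 interaction (346 without), and it lost no call of the 5 genes. With only the compared groups, 1 gene was called in MI-1061 over DMSO, 0 in MD-224 over DMSO, 0 in NCS+MD-224 over MD-224, 1 in MD-224 over MI-1061 and 1 in NCS+MD-224 over DMSO, and a constant prior variance left 0 in NCS+MD-224 over MD-224. Fewer libraries inform the spread when only the compared groups are used.

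Single libraries, and each replicate number of every group, were left out in turn. The number called was then 0 in NCS over DMSO and in NCS+MD-224 over NCS. It was 1 to 3 in MI-1061 over DMSO, 0 to 1 in MD-224 over DMSO and 4 to 5 in NCS+MI-1061 over NCS. It was 2 to 4 in NCS+MI-1061 over MI-1061, 0 to 1 in NCS+MD-224 over MD-224 and 1 to 2 in MD-224 over MI-1061. The range was 2 to 4 in NCS+MD-224 over NCS+MI-1061, 0 to 2 in NCS+MD-224 over DMSO and 1 to 3 in the MI-1061 interaction. Without replicate 3 of every group the calls over all genes were 902 in NCS over DMSO (1699 before), 619 in MD-224 over DMSO (1311), 163 in NCS+MD-224 over NCS (465), 476 in NCS+MD-224 over MD-224 (1216), 1080.0 in NCS+MD-224 over NCS+MI-1061 (1703), 649 in the MI-1061 interaction (1360.0) and 4 in the MD-224 interaction (346). In NCS+MD-224 over NCS they were 122 with TMM scaling, and 163 to 298 without the libraries or replicate numbers that moved them over 1.5 times, and in the MD-224 interaction the others of these left 160.0 to 219. Other counts over all genes that moved were 795 with only the compared groups in MD-224 over DMSO and, with TMM scaling, 923 in NCS over DMSO, 684 in MD-224 over DMSO, 1326 in NCS+MI-1061 over NCS, 651 in NCS+MD-224 over MD-224, 907 in NCS+MD-224 over NCS+MI-1061 and 1077 in NCS+MD-224 over DMSO.

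Of 1200.0 estimates for single genes 1100.0 kept their side of the threshold (a change of sign was counted as a reversal only for an estimate past it), 63 lost their call, 24 gained one and 13 reversed. With 3 libraries a group a 1.5-fold change was mostly missed in simulated data (20% recovered in NCS+MI-1061 over NCS). The simulation changed 200 of 3071 genes, while 2191 were called in the data, so its threshold on unadjusted p was stricter. The 20% is therefore not the share that the reported tests would find. The cause of the changes was not tested.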
